A study of Sus scrofa with 6 samples.

Results

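The collagen and laminin chains of the extracellular matrix were followed in pig cells cultured with or without a stable form of vitamin C. The members were the rows whose gene symbol was COL, digits, A and digits, or began with LAMA, LAMB or LAMC, or was NID1, NID2, HSPG2 or AGRN. The rule found 52 genes among 17670 rows, of which 13141 had a symbol. They were 37 collagen chains, 11 laminin chains, and 4 genes for nidogens and heparan sulfate proteoglycans.

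There were 3 libraries of cells given L-ascorbic acid 2-phosphate (AA2P) at 250 µM after 6 h of culture, and 3 libraries of control cells. All were labelled immature Sertoli cells from the testis of pig fetuses 80 to 90 days into gestation, and both groups were kept in MEM with 10% fetal bovine serum and 1% penicillin-streptomycin. The sources used here give neither the length of the treatment nor the number of fetuses. They do not say whether a group's libraries are separate cultures, and the p-values therefore measure only the spread between these libraries, which may be technical.

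A collagen is built from 3 chains wound into a triple helix, and the helix is stable at body temperature only after prolyl hydroxylases, which use ascorbate, have modified its proline residues. Fibrillar collagens form the tensile cables of connective tissue, while type IV collagen and laminins form the sheet-like networks of basement membranes, which nidogens, perlecan and agrin bind. In the testis a basement membrane lies under the Sertoli cells and separates the seminiferous tubule from the peritubular cells.

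Library totals ran from 18747307 to 23122000 reads in the AA2P libraries and from 19299585 to 23521291 in the controls. Levels are given as CPM, the read count of a gene relative to the TMM-scaled total of its library. Transcript lengths were not used, so levels are compared between groups and not between genes. AA2P library 3 stood nearest to the controls. Its correlations of log2 CPM with the control libraries, across genes, which are not independent replicates, were 0.968 to 0.973, against 0.956 to 0.964 for the other AA2P libraries. By edgeR's quasi-likelihood test 6615 of 12701 tested genes, 52.1%, passed a Benjamini-Hochberg adjusted p of 0.05, with 26% higher and 26.1% lower with AA2P. Over the tested genes the log2 fold change had a median of 0.00, and scaling by library totals in place of TMM moved it, and each gene's value, up by about 0.17.

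The label of the cells was set against marker genes. Of 16 Sertoli cell markers 11 had a row, and their summed level was 5069 to 6531 CPM with AA2P and 14025 to 14831 CPM in controls. VIM, vimentin, and CLU, clusterin, made up most of that sum, so it mainly follows these genes. VIM was at 4113 ± 457 CPM with AA2P and 9741 ± 270 CPM in controls (SD, n = 3). CLU was at 1301 ± 266 CPM with AA2P and 4228 ± 168 CPM in controls. SOX9, a transcription factor of Sertoli cell fate, was at 1.70, 2.58 and 2.38 CPM with AA2P and 12.3, 11.5 and 11.0 CPM in controls. Of the 8 Sertoli cell markers tested, 6 fell, TF, transferrin, rose and AMH did not pass, where 26.1% of all tested genes fell and 26% rose. AMH, anti-Müllerian hormone, was at 34.4 ± 2.35 CPM with AA2P and 36.4 ± 1.52 CPM in controls (SD, n = 3), while DHH and INHA, other Sertoli cell genes, had at most 3 counts in any library. Of 10 genes of kidney and mesonephric tubules 8 had a row, and their sum was 1034 to 1346 CPM with AA2P and 373 to 419 CPM in controls. LRP2, megalin, an endocytic receptor, made up 45.8% to 55.1% of that sum with AA2P and 17.4% to 22.1% in controls, and without it, a step added after seeing the data, the sum was 559.9 to 635 CPM with AA2P and 301 to 326 CPM in controls. All 8 were tested, of which 7 rose and EMX2, a homeobox gene, fell, beside 26% and 26.1% of all tested genes. PAX2, a transcription factor of these tubules, was at 126, 139 and 137 CPM with AA2P and 102, 97.7 and 95.9 CPM in controls. The cells are therefore called by their label.

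Other marker lists were low or mixed. The 7 of 11 stromal and peritubular genes with a row summed to 293 to 345 CPM with AA2P and 414 to 419 CPM in controls, mostly TAGLN, an actin-binding protein, and MYH11 and PDGFRB had at most 3 counts. Of the 3 tested, TAGLN and DES fell and CNN1 rose. DES was at 8.35 ± 1.83 CPM with AA2P and 39.1 ± 1.92 CPM in controls (SD, n = 3). CNN1 was at 1.17 ± 0.167 CPM with AA2P and 0.595 ± 0.139 CPM in controls. The 3 of 6 Leydig cell genes with a row summed to 6.35 to 7.38 CPM with AA2P and 5.58 to 5.84 CPM in controls, with CYP17A1 and INSL3 at no more than 3 counts. STAR made up most of that sum and did not pass (log2 fold change 0.23, adjusted p = 0.131). The 4 of 7 endothelial genes with a row summed to 6.53 to 8.82 CPM with AA2P and 2.30 to 3.53 CPM in controls, with EMCN at no more than 3 counts. PECAM1 made up most of that sum and was called higher. The 5 of 6 macrophage genes with a row summed to 24.3 to 27.6 CPM with AA2P and 28.0 to 30.6 CPM in controls, with CSF1R and CD163 at no more than 3 counts. CD14 made up most of it and fell, while AIF1 rose, at 5.16 ± 0.348 CPM with AA2P and 0.726 ± 0.314 CPM in controls (SD, n = 3). The 3 of 7 germ cell genes with a row summed to 0.851 to 1.15 CPM with AA2P and 4.57 to 4.78 CPM in controls. PIWIL2 carried that difference, at 0.694 ± 0.175 CPM with AA2P and 4.29 ± 0.0946 CPM in controls. DDX4 and NANOS3 had at most 7 and 6 reads in any library and were not tested. The part of these cell type differences in the matrix results was not tested. In bulk RNA, fewer cells of a type and less RNA per cell cannot be told apart.

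COL1A1, COL1A2, COL3A1, COL4A1, COL4A2, COL5A1, COL6A1 and COL6A2, chains of the fibrils, of the basement membrane and of type VI microfibrils, fell with AA2P. The largest fall was that of COL15A1, a basement membrane zone collagen, and LAMA4 and LAMB3 also fell. A smaller set rose, led among well-counted genes by COL4A5, a basement membrane chain. Of the 52 members 40 had enough reads to be tested, 11 of which were called higher and 19 lower. The called share of 75%, or 30 of 40, stands beside 52.1% of all tested genes, and 19 lower and 11 higher stand beside 26.1% and 26% of all tested genes in those directions. The median log2 fold change of the 40 was -0.11, which turned to 0.06 with library totals, where that of all tested genes was 0.17. With library totals 17 members were called higher and 16 lower, against 45.1% and 14.3% of all tested genes, and without AA2P replicate 3 the counts were 8 higher and 19 lower.

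**Figure D1:**
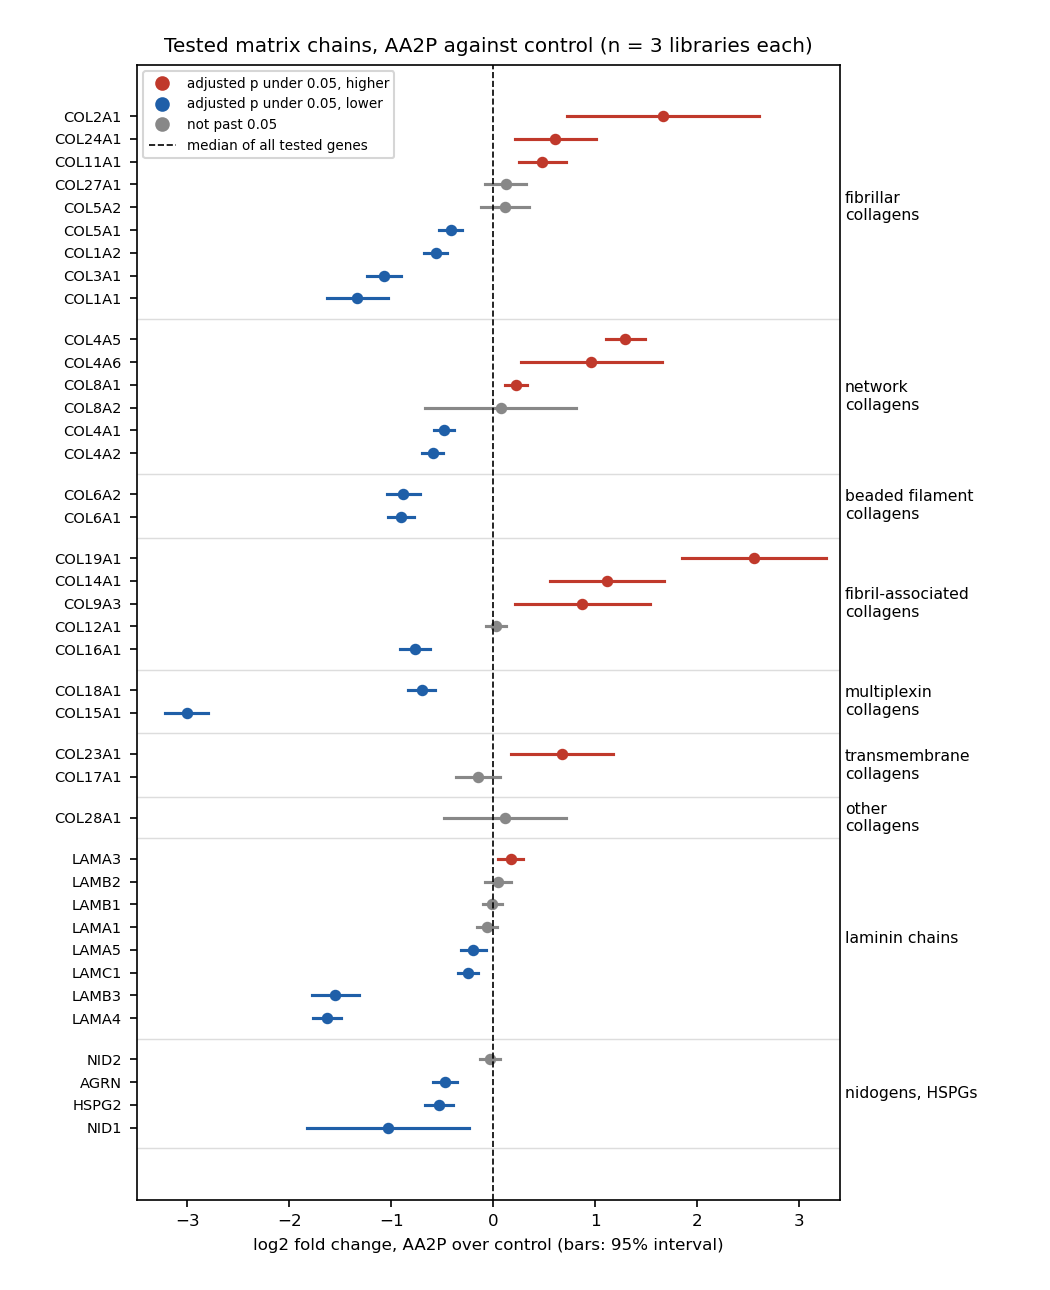
Log2 fold change of 39 tested members, AA2P over control, by class, with points for the estimate and bars for the 95% interval (n = 3 libraries a group). Red genes were called higher, blue genes lower and grey genes did not pass an adjusted p of 0.05, and the dashed line is the median of all tested genes. COL15A1 lies at -3.01 and COL19A1 at 2.56.

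Differences of at least 2-fold were called for 4 members that rose and 7 that fell, beside 5.53% and 3.48% of all tested genes. The 4 were COL2A1, COL4A5, COL14A1 and COL19A1, and the 7 included COL1A1, COL3A1, COL15A1, LAMA4, LAMB3 and NID1. COL2A1 and COL19A1 had enough reads to be tested only through their AA2P libraries, and NID1 only through its controls. For these genes the filter on low counts thus favoured a difference. The groups of libraries did not overlap in 30 of the 40 tested members, beside 59.3% of all tested genes. AA2P library 3 was the AA2P library nearest to the control mean in 21 of the 30 called members. The same share over all called genes was not computed, and this library also stood nearest to the controls across all tested genes.

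The 12 untested members had at most 8 reads in any library. They were COL11A2 and COL5A3 of the fibrillar class, COL10A1 and COL4A4 of the network class, COL6A5 and COL6A6 of the beaded class, COL9A1, COL21A1 and COL22A1 of the fibril-associated class, the transmembrane COL13A1, and the laminin chains LAMB4 and LAMC3. COL11A2 had the most, with 3, 8 and 7 reads with AA2P and 2, 4 and 6 reads in controls. COL4A3, COL6A3, COL7A1, COL9A2, COL20A1, COL25A1, COL26A1 and LAMA2 are of the same families and were not analysed here.

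**Figure D2:**
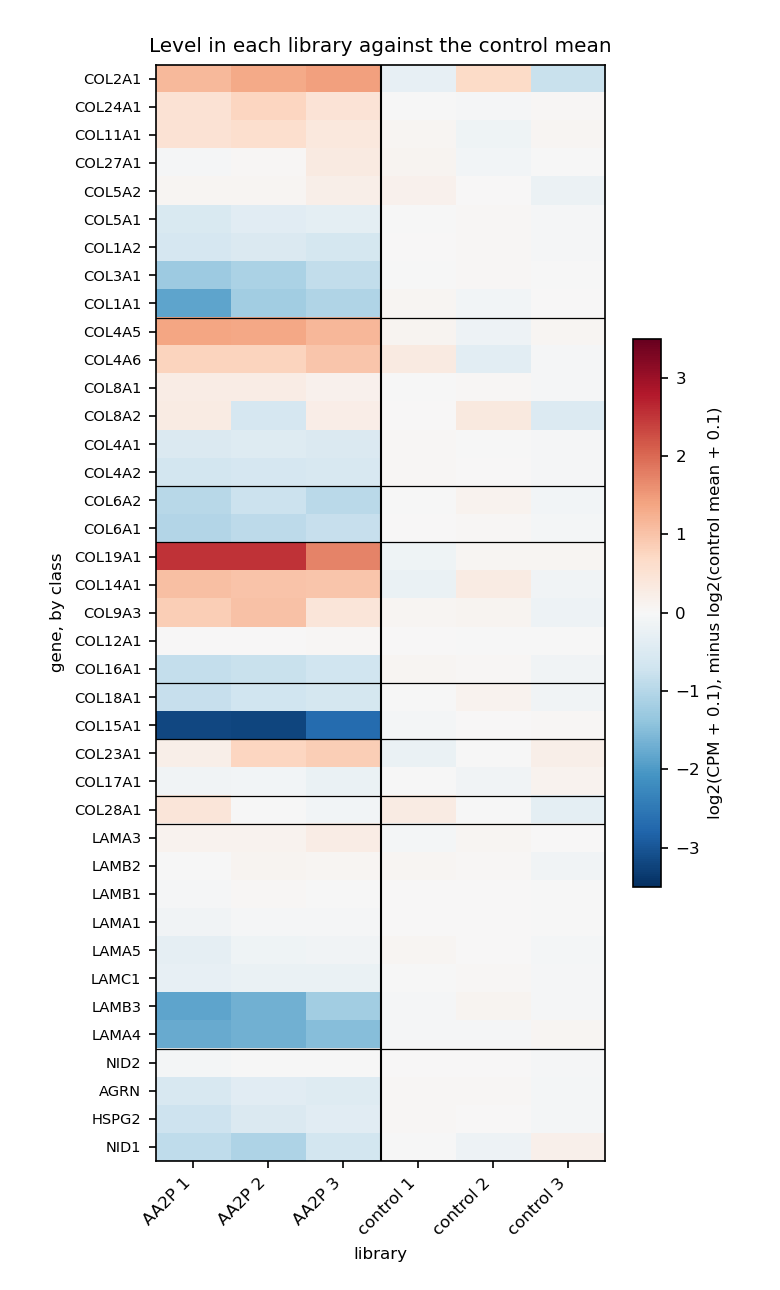
Level of 39 tested members in each library, as log2(CPM + 0.1) minus log2 of the control mean + 0.1, with the AA2P libraries left of the line and the controls right of it. Red is above and blue below the control mean. COL15A1, LAMA4 and LAMB3 are blue in all 3 AA2P libraries, COL4A5 and COL19A1 are red in all 3, and LAMB1, NID2 and COL12A1 are near white throughout.

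In the fibrillar class 4 of 9 tested chains fell and 3 rose, beside 26.1% and 26% of all tested genes. COL5A2 and COL27A1 did not pass. The chains that fell make the common fibrils of soft connective tissue. COL1A2, 1 of the 2 kinds of chain in type I collagen, was at 8454, 9051 and 8392 CPM with AA2P and 12841, 13201 and 12321 CPM in controls. The groups were far apart for the size of their spread, with a log2 fold change of -0.57 (SE 0.05, adjusted p = 1.1e-07). COL1A2 alone took 0.884% to 0.962% of all reads in the AA2P libraries and 1.16% to 1.24% in the controls, and its share of the reads of the 52 members was 47.4% to 49.4% with AA2P and 52.3% to 53.0% in controls.

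COL1A1, the partner chain of type I collagen, was at 5.70, 8.96 and 10.1 CPM with AA2P and 22.2, 19.6 and 21.2 CPM in controls. AA2P library 1 was the lowest, and every AA2P library lay below every control. Its log2 fold change was -1.34 (SE 0.14, adjusted p = 6.4e-07). The row rested on 114, 181 and 245 reads with AA2P and 492, 355 and 436 reads in controls, while that of COL1A2 held 168948, 182768 and 204347 reads with AA2P and 285028, 239631 and 253910 reads in controls. How many COL1A1 transcript bases the authors' counting covered is not given in the sources used here, and the counts do not give a ratio of molecules.

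COL3A1, the chain of type III collagen, which mixes with type I in distensible tissue, was at 30.9, 34.8 and 40.8 CPM with AA2P and 74.0, 76.4 and 73.9 CPM in controls. The controls were tight and AA2P library 3 was nearest to them, and the log2 fold change was -1.07 (SE 0.08, adjusted p = 9.4e-09). COL5A1, a chain of the type V collagen that starts fibrils, was at 641, 696 and 732 CPM with AA2P and 921, 954 and 894 CPM in controls. It fell by 0.42 on the log2 scale (SE 0.05, adjusted p = 6.2e-06). Its partner COL5A2 was at 10.8, 10.8 and 12.0 CPM with AA2P and 11.6, 10.5 and 8.93 CPM in controls. These values overlapped, and the 95% interval of the log2 fold change was -0.12 to 0.35. COL27A1, a collagen of cartilage, was at 24.3 ± 3.26 CPM with AA2P and 22.4 ± 1.45 CPM in controls (SD, n = 3), with an interval of -0.08 to 0.32. With library totals COL5A2 and COL27A1 both passed as higher, each with a log2 fold change of 0.29.

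Of the fibrillar chains that rose, COL24A1 and COL2A1 had under 100 reads on average. COL11A1, a chain of the minor fibrils of cartilage, was at 11.5, 12.2 and 10.4 CPM with AA2P and 8.51, 7.22 and 8.54 CPM in controls, a log2 fold change of 0.48 (SE 0.11, adjusted p = 0.0016). COL24A1, a fibrillar collagen of developing bone, was at 2.60, 3.12 and 2.55 CPM with AA2P and 1.80, 1.76 and 1.84 CPM in controls. Its groups did not overlap (log2 fold change 0.61, adjusted p = 0.013), but without AA2P replicate 2 its adjusted p was 0.0666. COL2A1, the main cartilage collagen, had 13, 15 and 20 reads with AA2P and 4, 8 and 2 reads in controls, with a log2 fold change of 1.67 (SE 0.44, adjusted p = 0.0050). Its controls were below the filter level, so it was tested through its AA2P libraries, and without control replicate 2 the log2 fold change was 2.36.

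In the network class 3 of 6 tested chains rose and 2 fell, beside 26% and 26.1% of all tested genes, and COL8A2 did not pass. COL4A1 and COL4A2, which form the main type IV collagen of nearly all basement membranes and are neighbours on chromosome 11 of the RefSeq assembly, both fell. COL4A1 was at 657, 679 and 649.7 CPM with AA2P and 949, 919 and 908 CPM in controls, with a log2 fold change of -0.48 (SE 0.05, adjusted p = 2.1e-07). COL4A2 was at 953, 1006 and 1019 CPM with AA2P and 1536, 1507 and 1458 CPM in controls, with -0.60 (SE 0.05, adjusted p = 2.7e-08). In both genes the AA2P libraries were close to each other and well under the controls.

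COL4A5 and COL4A6, neighbours on chromosome X, rose. COL4A5, a chain of the kidney glomerular membrane and of other specialised basement membranes, was at 33.1, 32.5 and 28.7 CPM with AA2P and 13.6, 11.2 and 13.4 CPM in controls. All AA2P libraries were more than double any control (log2 fold change 1.30, SE 0.09, adjusted p = 5.6e-09). The kidney and mesonephric tubule markers summed to 1034 to 1346 CPM with AA2P and 373 to 419 CPM in controls, or without LRP2 to 559.9 to 635 CPM with AA2P and 301 to 326 CPM in controls, and their part in this rise was not tested. COL4A6, its partner chain in smooth muscle and some epithelia, had 17, 17 and 24 reads with AA2P and 13, 6 and 9 reads in controls. The groups did not overlap in CPM, and the log2 fold change of 0.96 had an adjusted p of 0.021. That call was lost without AA2P replicate 3, control replicate 2 or control replicate 3 (adjusted p = 0.0646, 0.0914 and 0.0637) and by the DESeq2 Wald test (0.0938).

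COL8A1, a short-chain network collagen of vessel walls and of the membrane beneath the corneal endothelium, was at 953, 965 and 882 CPM with AA2P and 799, 827 and 774 CPM in controls. It rose by a small amount (log2 fold change 0.22, SE 0.05, adjusted p = 0.0015), with AA2P library 3 the lowest of its group. Its partner COL8A2 had 9 to 21 reads with AA2P and 10 to 17 reads in controls, and the 95% interval of its log2 fold change, -0.67 to 0.82, was too wide to tell a rise from a fall.

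Both tested chains of beaded filament collagen, the type VI microfibrils that lie next to basement membranes, fell by nearly the same amount. Of all tested genes 26.1% fell. COL6A1 was at 174, 191 and 206 CPM with AA2P and 359, 370.5 and 343 CPM in controls (log2 fold change -0.91, SE 0.06, adjusted p = 2.4e-09). COL6A2 was at 22.1, 25.6 and 22.6 CPM with AA2P and 42.6, 46.9 and 40.4 CPM in controls (-0.88, SE 0.08, adjusted p = 6.7e-08). In each, the highest AA2P library was well below the lowest control.

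Among the 5 tested fibril-associated collagens, which decorate the surface of fibrils, 3 rose, COL16A1 fell and COL12A1 did not pass. Of all tested genes 26% rose and 26.1% fell. COL12A1, a large chain on type I fibrils, was at 728, 721 and 744 CPM with AA2P and 727, 713 and 717 CPM in controls. Its 95% interval of -0.07 to 0.12 was narrow, although with library totals it passed as higher with a log2 fold change of 0.19. COL16A1, a chain of fibrillin-rich and collagen fibrils, was at 29.6, 30.8 and 32.4 CPM with AA2P and 55.8, 53.9 and 48.5 CPM in controls, a log2 fold change of -0.77 (SE 0.07, adjusted p = 8.6e-08).

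The fibril-associated chains that rose were rare. COL19A1, a chain of basement membrane zones and muscle, had 51, 52 and 35 reads with AA2P and 7, 7 and 8 reads in controls, or 2.55, 2.58 and 1.44 CPM with AA2P and 0.315, 0.386 and 0.388 CPM in controls. AA2P library 3 was the lowest of its group and still well above every control. The log2 fold change was 2.56 (SE 0.33, adjusted p = 7.1e-06). Every control library was under the filter level, so the gene was tested only through its AA2P libraries. COL14A1, an interfibrillar chain of tendon and skin, was at 1.55, 1.49 and 1.48 CPM with AA2P and 0.586, 0.881 and 0.631 CPM in controls, a log2 fold change of 1.12 (SE 0.26, adjusted p = 0.0020). COL9A3, a cartilage chain, was at 1.10, 1.24 and 0.780 CPM with AA2P and 0.586, 0.606 and 0.485 CPM in controls (log2 fold change 0.87, adjusted p = 0.027). Leaving out any library but AA2P replicate 3 ended the call, with adjusted p-values between 0.0537 and 0.112, and DESeq2 gave 0.0970.

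Both multiplexins, basement membrane collagens that carry heparan or chondroitin sulfate chains and release antiangiogenic fragments, fell, beside 26.1% of all tested genes. COL15A1 was at 12.0, 11.8 and 17.0 CPM with AA2P and 105, 111 and 114 CPM in controls. AA2P library 3 was the highest of its group and still far under every control, and the log2 fold change of -3.01 (SE 0.10, adjusted p = 2.2e-12) was the largest of the members in either direction. It was -3.21 without AA2P replicate 3. COL18A1 was at 242, 264 and 280.0 CPM with AA2P and 426, 462 and 394 CPM in controls, a smaller fall of 0.70 on the log2 scale (SE 0.06, adjusted p = 1.1e-07).

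Of the remaining collagens only COL23A1 passed. COL17A1, the transmembrane collagen of hemidesmosomes, was at 11.4, 11.5 and 10.5 CPM with AA2P and 12.2, 11.3 and 13.5 CPM in controls, with an interval of -0.36 to 0.06. COL23A1, another transmembrane collagen, was at 1.60, 2.38 and 2.59 CPM with AA2P and 1.17, 1.38 and 1.60 CPM in controls. It was called higher with overlapping groups (log2 fold change 0.68, adjusted p = 0.025), and the adjusted p was 0.0782 without AA2P replicate 2, 0.0924 without AA2P replicate 3, 0.106 without control replicate 1, 0.0603 without control replicate 2 and 0.0653 by DESeq2. COL28A1, a collagen of peripheral nerve, had 20 to 28 reads with AA2P and 16 to 28 reads in controls and did not pass.

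A laminin is a trimer of an alpha, a beta and a gamma chain, and the alpha chain sets most of its receptor binding. Of the 9 tested laminin chains 5 fell and 1 rose, beside 26.1% and 26% of all tested genes, and 3 did not pass. Among alpha chains, LAMA4, the short alpha chain of vessel, muscle and nerve basement membranes, was at 116, 123 and 139.7 CPM with AA2P and 381, 383 and 415 CPM in controls, a log2 fold change of -1.63 (SE 0.06, adjusted p = 8.6e-12). Every AA2P library was far below every control. LAMA5, the widespread alpha chain of mature epithelia, was at 631, 713 and 728 CPM with AA2P and 824, 799 and 749 CPM in controls. Its fall of 0.20 (SE 0.06, adjusted p = 0.0097) had groups that nearly touched, and the call was lost without control replicate 1 (adjusted p = 0.0587) and with library totals, where the log2 fold change was -0.03.

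LAMA1, the alpha chain of embryonic and seminiferous tubule basement membranes, was at 181, 191 and 190.2 CPM with AA2P and 196, 196 and 194 CPM in controls. The groups did not overlap but the gene did not pass, since its log2 fold change of -0.06 had a 95% interval of -0.16 to 0.04, and the sign turned to 0.11 with library totals, also without a call. LAMA3, the alpha chain of the hemidesmosomal laminin, was at 77.0, 77.3 and 85.5 CPM with AA2P and 67.4, 74.0 and 72.2 CPM in controls. It rose by 0.17 (SE 0.06, adjusted p = 0.027), a difference that missed the threshold without AA2P replicate 3, control replicate 1 or control replicate 3 (adjusted p = 0.0860, 0.145 and 0.0582).

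LAMB3, the beta chain that joins LAMA3 in that laminin, fell. It was at 19.8, 21.9 and 30.6 CPM with AA2P and 69.1, 75.3 and 68.6 CPM in controls, a log2 fold change of -1.55 (SE 0.11, adjusted p = 6.0e-09). AA2P library 3 was the highest of its group and no AA2P library came near a control, while LAMA3 was not lower.

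LAMB1 and LAMB2 overlapped between the groups and LAMC1 fell by a small amount. LAMB1 was at 882, 923 and 891 CPM with AA2P and 909.7, 906 and 899 CPM in controls, with a 95% interval of -0.10 to 0.09 around a log2 fold change of -0.01. LAMB2, the beta chain of neuromuscular and kidney filter membranes, was at 122, 132 and 129 CPM with AA2P and 131, 128 and 113 CPM in controls, with an interval of -0.08 to 0.17. With library totals both genes were called higher, by 0.16 and 0.21. LAMC1, the gamma chain of most laminins, was at 639, 659 and 653 CPM with AA2P and 771, 791 and 758 CPM in controls, a log2 fold change of -0.25 (SE 0.05, adjusted p = 0.00022). With library totals it was -0.08 and did not pass.

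Of the linkers and proteoglycans of the basement membrane, HSPG2, AGRN and NID1 fell and NID2 did not pass. Among all tested genes 26.1% fell. HSPG2 encodes perlecan, a large heparan sulfate proteoglycan, and was at 879, 1025 and 1091 CPM with AA2P and 1481, 1466 and 1392 CPM in controls (log2 fold change -0.54, SE 0.07, adjusted p = 3.6e-06). AGRN encodes agrin, a proteoglycan that clusters acetylcholine receptors and binds dystroglycan, and was at 207, 232 and 225 CPM with AA2P and 316, 314 and 293 CPM in controls (-0.47, SE 0.05, adjusted p = 1.6e-06). AA2P library 1 was the lowest in both genes, and neither had overlapping groups.

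The nidogens tie laminin to type IV collagen. NID2 was at 399.7, 415 and 411 CPM with AA2P and 423, 422 and 407 CPM in controls, with a 95% interval of -0.13 to 0.07 around a log2 fold change of -0.03, although with library totals it passed as higher at 0.14. NID1 had only 6, 5 and 9 reads with AA2P and 14, 10 and 15 reads in controls. Its log2 fold change of -1.03 (SE 0.37, adjusted p = 0.030) was not called without AA2P replicate 1 (adjusted p = 0.0687), AA2P replicate 2 (0.0989), control replicate 1 (0.0640) or control replicate 3 (0.0979), with no filter on low counts (0.0688), with library totals (0.0581) or by DESeq2 (0.133).

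Calls were also counted by the number of reads. Of the 30 tested members with 100 reads or more on average, 18 fell and 4 rose, beside 29.3% and 25.8% of all such genes. The 4 were COL4A5, COL8A1, COL11A1 and LAMA3. Of the 10 with fewer reads, 7 rose and NID1 fell, beside 26.9% and 12.3% of all such genes. The filter on low counts bears on these 10, since at least 1 library of COL2A1, COL4A6, COL8A2, COL9A3, COL19A1 and NID1 was under its level of about 10 reads. COL2A1 and COL19A1, with every control library under that level, passed it only through the AA2P libraries, and NID1, with every AA2P library under it, only through the controls. The other 4 members with fewer reads were COL14A1, COL23A1 and COL24A1, which rose, and COL28A1, which did not pass. Without the 6 genes, a step added after seeing the data, 7 members were called higher and 18 lower. The shares of all genes under the same restriction were not computed, so these counts have no background beside them.

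**Figure D3:**
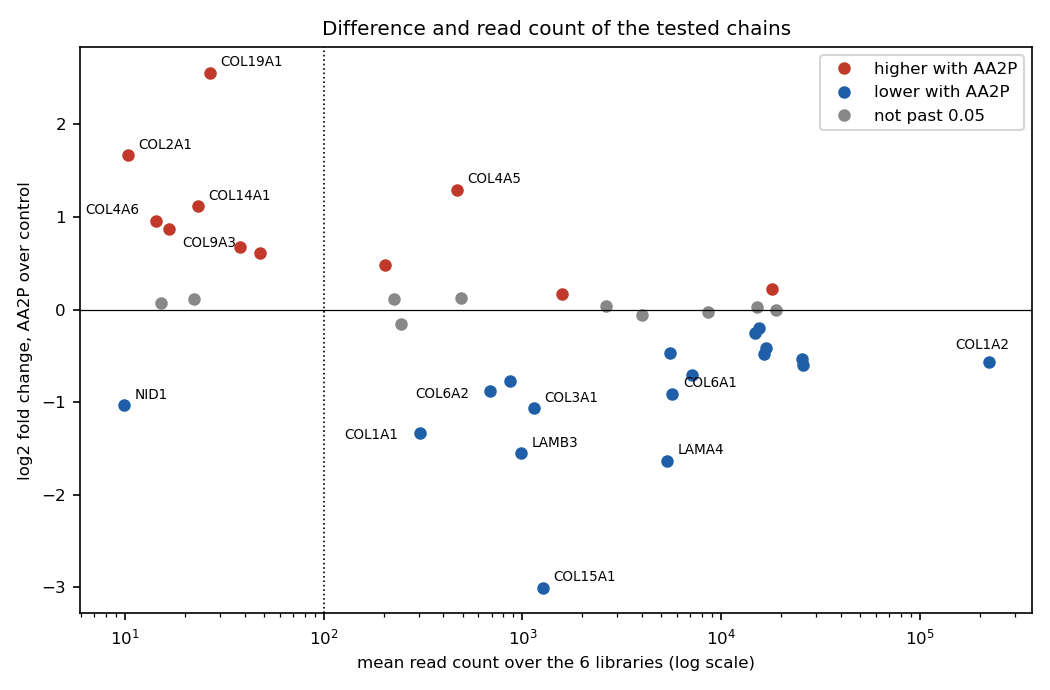
Log2 fold change, AA2P over control, of 39 tested members against their mean read count over the 6 libraries on a log axis. The dotted line stands at 100 reads. Left of it 7 of 10 members were called higher, and right of it 17 of 29 were called lower, with COL1A2 at the far right and COL15A1 lowest.

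Summed over a class, the reads of most classes were lower with AA2P. The 52 members together were at 17167, 18313 and 17715 CPM with AA2P and 24529, 24912 and 23568 CPM in controls, a difference of mean log2 sums of -0.46, or -0.29 with library totals. They took 1.83% to 1.95% of all reads in the AA2P libraries and 2.23% to 2.34% in the controls. The fibrillar sum was at 9417 ± 369 CPM with AA2P and 13849 ± 473 CPM in controls (SD, n = 3), and without COL1A2, a step added after seeing the data, it was at 784 ± 56.2 CPM with AA2P and 1062 ± 30.3 CPM in controls.

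The multiplexin and beaded sums differed most, by -0.96 and -0.91 on the log2 scale. Multiplexins were at 276 ± 21.4 CPM with AA2P and 537 ± 33.1 CPM in controls, and beaded collagens at 214 ± 16.5 CPM with AA2P and 401 ± 16.9 CPM in controls (SD, n = 3). Network collagens were at 2621 ± 55.3 CPM with AA2P and 3239.7 ± 76.1 CPM in controls, a difference of -0.31, or -0.14 with library totals. Nidogens and proteoglycans were at 1628 ± 127 CPM with AA2P and 2172 ± 68.9 CPM in controls, a difference of -0.42, or -0.25 with library totals. Laminins had the smallest of these differences, -0.26, or -0.092 with library totals, from 2795 ± 102 CPM with AA2P and 3349 ± 46.8 CPM in controls. The fibril-associated sum overlapped between groups, at 767 ± 12.1 CPM with AA2P and 773 ± 9.64 CPM in controls, a difference of -0.01, which was 0.16 with library totals. The sum of the transmembrane collagens also overlapped between groups, as did COL28A1 alone. For each sum whose groups did not overlap, the exact two-sided permutation test gave p = 0.1, the smallest that 3 against 3 allow, or 0.138 adjusted over 11 sums, so no sum could pass 0.05.

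**Figure D4:**
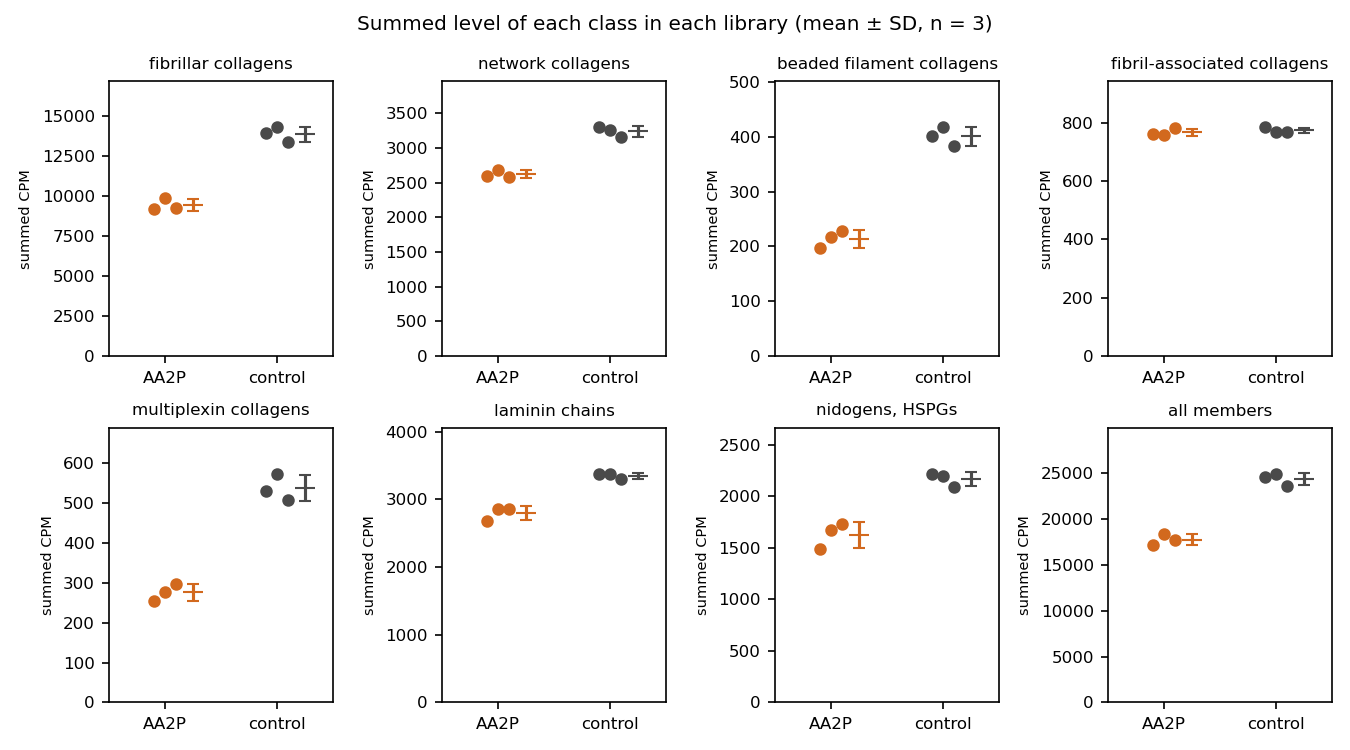
Summed CPM of 5 collagen classes, the laminins, the nidogens and proteoglycans, and all members in each of the 3 AA2P and 3 control libraries (points), with the mean and SD beside them, each panel on its own axis from 0. The AA2P points lie below the control points in every panel but that of the fibril-associated collagens, where the groups overlap.

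Ratios between chains within a library do not depend on how libraries are scaled, and 15 pairs of chains were compared. The ratios are of reads, so their level is not a ratio of molecules, and only their change between groups is read. That change speaks for a chain only as far as its row counts the chain's transcript. The ratio of COL4A5 to COL4A1 was higher by 1.79 on the log2 scale with AA2P, with values of -4.31, -4.38 and -4.50 with AA2P and -6.13, -6.35 and -6.07 in controls. The ratio of the neighbours COL4A1 and COL4A2 was higher by only 0.11, but its groups did not overlap. It was -0.54, -0.57 and -0.65 with AA2P and -0.69, -0.71 and -0.68 in controls. That of COL4A5 to COL4A6 was 5.24, 5.23 and 4.84 with AA2P and 4.48, 4.98 and 4.87 in controls, with overlapping groups.

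The ratio of COL1A1 to COL1A2 was lower with AA2P by -0.82, with values of -10.5, -9.98 and -9.70 with AA2P and -9.18, -9.40 and -9.18 in controls. It rests on the few COL1A1 reads given above, and how much of that transcript they cover is not known. That of COL5A1 to COL5A2 was lower by -0.55, while COL6A1 to COL6A2 differed by -0.03 with overlapping groups. COL3A1 and COL5A2 are neighbours on chromosome 15 and differed in their calls, since COL3A1 fell and COL5A2 did not pass.

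Among laminins, LAMA1 and LAMA5 were higher relative to LAMA4, by 1.58 and 1.44 on the log2 scale. LAMC1 was lower relative to LAMB1 by -0.24, and LAMB2 to LAMB1 differed by 0.05 with overlapping groups. COL18A1 to COL15A1 was higher by 2.33, NID2 to NID1 by 0.98 on few NID1 reads, COL3A1 to COL1A1 by 0.30 with overlap and AGRN to HSPG2 by 0.07 with overlap. Each pair without overlap had an exact two-sided permutation p of 0.1, the smallest this design allows, or 0.15 adjusted over the 15 pairs.

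**Figure D5:**
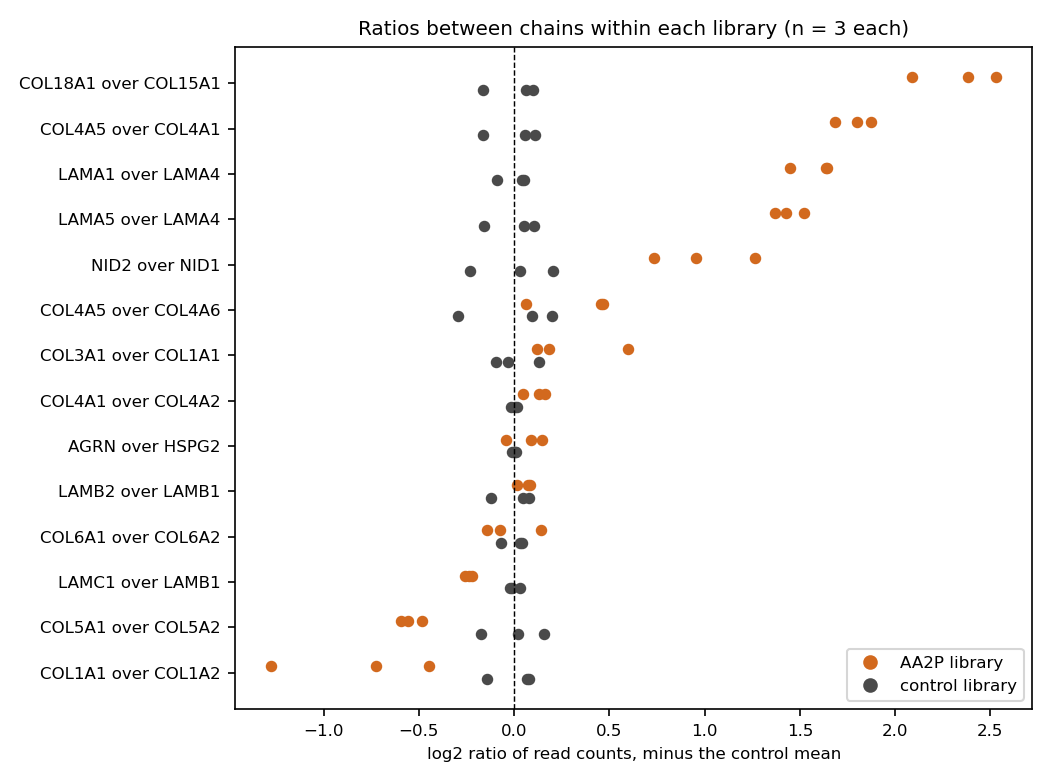
Log2 ratio of the read counts of 2 chains in each library, minus the control mean of that ratio, for 14 pairs, with AA2P libraries in orange above the control libraries in grey. The AA2P points of COL18A1 over COL15A1 and COL4A5 over COL4A1 lie farthest right, and those of COL1A1 over COL1A2 farthest left.

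Receptors that bind collagens and laminins moved in both directions. Of 15 listed, 11 were tested, 7 fell and 3 rose, beside 26.1% and 26% of all tested genes, with a median log2 fold change of -0.46. ITGA6, the alpha chain of laminin-binding integrins, was at 318, 315 and 364 CPM with AA2P and 785, 823 and 841 CPM in controls, a log2 fold change of -1.30 (adjusted p = 4.1e-11). ITGB1, the common beta chain, was at 665, 613 and 693 CPM with AA2P and 1165, 1185 and 1231 CPM in controls, a log2 fold change of -0.86 (adjusted p = 1.1e-09). ITGA1, the alpha chain of an integrin that prefers type IV collagen, was at 587, 536 and 410.4 CPM with AA2P and 129, 124 and 128 CPM in controls, a log2 fold change of 2.01 (adjusted p = 5.1e-11). The others that rose were BCAM, a laminin alpha 5 receptor, and DAG1, dystroglycan, by 0.76 and 0.23.

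Of 20 other proteins of basement membranes or bound to collagen 16 were tested, 5 rose and 6 fell, beside 26% and 26.1% of all tested genes, with a median log2 fold change of 0.16. FREM1, a protein of the epidermal basement membrane, was at 90.5, 85.0 and 73.3 CPM with AA2P and 24.9, 18.2 and 21.8 CPM in controls, a log2 fold change of 1.93 (adjusted p = 1.1e-10). TINAG, a basement membrane protein of kidney tubules, was at 60.2, 65.4 and 56.0 CPM with AA2P and 28.8, 28.4 and 29.4 CPM in controls (1.07, adjusted p = 1.5e-09), and EGFLAM, or pikachurin, a ligand of dystroglycan, at 21.1 ± 0.989 CPM with AA2P and 10.9 ± 0.649 CPM in controls (SD, n = 3) (0.95, adjusted p = 1.6e-07). TINAG rose beside the summed kidney and mesonephric tubule markers given above, and their part in its rise was not tested. Its relative TINAGL1 fell by 0.45, and PXDN, the peroxidase that makes the sulfilimine cross-links of type IV collagen, fell by 0.82 (adjusted p = 2.6e-06).

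Of 23 genes of collagen folding and secretion 18 were tested and 15 fell, beside 26.1% of all tested genes, with a median log2 fold change of -0.58. KLHL12, PDCD6 and TMEM131 did not pass, and 0 genes were called higher by edgeR, DESeq2 or limma-voom, nor were any higher at an unadjusted p under 0.05 by edgeR. P4HA1, a catalytic subunit of prolyl 4-hydroxylase, was at 100.3, 93.5 and 93.4 CPM with AA2P and 363, 363 and 371 CPM in controls, a log2 fold change of -1.93 (adjusted p = 1.6e-13). P4HA2, another such subunit, was at 49.6, 51.5 and 53.1 CPM with AA2P and 129, 134 and 132 CPM in controls, a log2 fold change of -1.36 (adjusted p = 7.4e-12). No AA2P library of either gene came near a control. PLOD2, the telopeptide lysyl hydroxylase, was at 105, 97.9 and 101 CPM with AA2P and 212, 221 and 230.0 CPM in controls, a log2 fold change of -1.13 (adjusted p = 4.4e-11). SERPINH1, the collagen chaperone HSP47, and MIA3, which loads procollagen into transport carriers, fell by 0.71 and 0.42. With library totals 15 of these genes fell and 1 rose.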

How the data were processed

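Per the labels' protocols, TRIzol-extracted RNA of 3 AA2P and 3 control libraries was read on an Illumina HiSeq X-Ten, all in the same lane. Read conversion used bcl2fastq and alignment HISAT2 2.0.5, per the submitters' processing notes. The counting tool, strand setting, annotation and genome build are not given in the sources used here, so chains with similar copies or overlapping genes are uncertain. The authors deposited whole-number read counts per gene, not normalized. Symbols came from a table of gene names, and neighbouring genes from the RefSeq gene table of Sscrofa11.1, without coordinates.

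Genes passing filterByExpr were tested in R 4.3.3 with edgeR 4.0.16 (quasi-likelihood F test, TMM factors, group as the only term, Benjamini-Hochberg adjustment over 12701 genes, threshold 0.05). Fold changes are AA2P over control. Standard errors were derived from the F statistic, and 95% intervals use the t distribution of the fit. The common biological coefficient of variation was 5.49%. Ratios had 0.5 added to each count. A count of 0 allows up to 3 reads, which covers counting error only. Replicates differed by more than sampling noise (chi-square per degree of freedom 2.70 to 12.1). The procedure was run on simulated counts in which far fewer genes were changed than were called here. That run did not cover the unequal scaling factors of these groups. Alternatives included DESeq2 1.42.0 and voom in limma 3.58.1.

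Members and lists were chosen with earlier results of these data known. The values of 1 member, which counts and sums include, are not reported here. Values per library were printed for the 2 called members of each class with the smallest p, the 8 largest called rises and falls at 1 CPM or more, and chains of compared pairs; of the pathway lists, up to 3 genes by p. Other genes named with values (such as COL12A1, COL2A1, BCAM, DAG1, PXDN, TINAGL1, SERPINH1 and MIA3) were chosen after their values were seen.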

Additional observations from a re-analysis of the deposited data

How the results depend on the processing

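With library totals 5727 genes were higher and 1822 lower (TMM: 3302 and 3313), and among members 17 were higher. The sign turned for LAMB1 (0.16, then called), NID2 (0.14, then called), LAMA1 (0.11) and COL17A1 (0.018). Log2 differences of class sums with library totals were -0.29 for all members, -0.39 for fibrillar, -0.14 for network, -0.74 for beaded, 0.16 for fibril-associated, -0.79 for multiplexin and 0.13 for transmembrane collagens, -0.092 for laminins and -0.25 for nidogens and proteoglycans. Those of marker sums were -1.18 for Sertoli, -0.22 for stromal, 0.40 for Leydig, -0.029 for macrophage, -2.08 for germ cell and 1.82 for kidney and mesonephric tubule lists. The folding list then had 1 gene higher. At an adjusted p of 0.01, 6 members were higher. At 0.05, 7 were higher among the members with all libraries at the filter level. Without LRP2 the tubule list differed by 0.94 (with it: 1.65). Without COL1A2 the fibrillar sum differed by -0.44. These shifts follow from the scaling factors, the narrower set or, at an adjusted p of 0.01, the stricter threshold. The cause of the unequal factors was not tested.

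Leaving out 1 library turned the sign of 4 members that had not passed, whose log2 fold changes then ran from -0.14 to 0.31 for COL8A2, -0.071 to 0.32 for COL28A1, -0.028 to 0.0044 for LAMB1 and -0.021 to 0.083 for LAMB2. The replicate numbers showed no sign of pairing. Correlations of same-numbered deviations were -0.055 to -0.017, and those of other-numbered deviations were -0.065 to 0.105. Such values cannot show that no culture or day was shared between libraries. With the replicate block 6204 genes and 30 members were called, and no member's call changed, nor did any with DESeq2 size factors or limma-voom. The DESeq2 Wald test lost 4 of the 30. Few reads limit the precision of COL2A1, COL4A6, COL8A2, COL19A1 and NID1, whose intervals are wide.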
